A study of Rattus norvegicus with 6 samples.

Results

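The 10 genes described here are Lrp2, Cubn, Amn, Dab2, Pdzk1, Anpep, Dpp4, Mme, Enpep and Tinag. All but Tinag encode proteins of the proximal tubule's apical surface and uptake machinery, and Tinag encodes one of the tubular basement membrane. The 10 genes were chosen by name, with earlier results of these data known. A gene was read from its probeset annotated with that 1 symbol, the one with the highest mean where there were several. All 10 were measured, each by 1 probeset, among 14506 genes and 29215 probesets. RNA was taken from freshly isolated glomeruli of adult male Sprague-Dawley rats, with no culture step, and no treatment of the animals is named. The PEC-enriched isolates were labelled capsulated glomeruli, those that keep Bowman's capsule and its parietal epithelial cells (PECs), and were retained on a 90 µm sieve (n = 3 arrays). The PEC-deprived isolates were labelled decapsulated glomeruli and were collected on a 75 µm sieve (n = 3 arrays). Neither isolate was pure, since PEC-enriched preparations also held decapsulated glomeruli and PEC-deprived ones some that were capsulated. Tubular fragments were seen in preparations of both kinds, though not in every PEC-deprived one, and their amounts are not tied to single arrays here. The methods describe isolation from individual rats and give 3 animals, and neither they nor the labels say whether the 6 arrays share animals.

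The proximal tubule reclaims filtered protein. Lrp2 encodes megalin, a giant apical receptor, and Cubn encodes cubilin, a receptor with no membrane span of its own that reaches the surface only together with amnionless, the product of Amn. Dab2 is the clathrin adaptor that binds the tail of megalin, and Pdzk1 is a scaffold of PDZ domains that holds transporters in the brush border. Anpep, Dpp4, Mme and Enpep are membrane peptidases (aminopeptidase N, dipeptidyl peptidase 4, neprilysin and aminopeptidase A) that trim filtered peptides, and Tinag is a protein of the tubular basement membrane. Several of them are not restricted to the tubule. Megalin was found in rat podocytes as the antigen of Heymann nephritis, and aminopeptidase A and neprilysin are also known from podocytes.

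The promoters of the 10 genes varied widely in base composition. The 250 bases before the RefSeq start of each gene (GRCr8 assembly, all 10 matched) were searched on both strands for the half-site GTTAAT of HNF1, the site CAAAGTCCA of HNF4, both factors of the proximal tubule, and the TATA box TATAAA. The HNF1 half-site was found in Anpep alone of the 10 and in 6.45% of all 33469 promoters. The HNF4 site was found in Pdzk1 alone and in 0.338%, and the letters TATAAA in Tinag alone and in 12.9%. The match began 98 bases before the start in Anpep, 9 in Pdzk1 and 216 in Tinag. Mme had 70.4% G and C with 25 CpG dinucleotides, Lrp2 64.4% with 17, Anpep 55.6% with 7, Pdzk1 52.8% with 2 and Tinag 31.6% with 0, against a median of 51.2% and 5 over all promoters. A match is a description of letters and not a bound site. The 3 promoters with a match are shown first, with the match in capitals, then those of Mme and Lrp2, which had the highest content of G and C among the 10, all 5′ to 3′ on the strand of the gene.
Anpep (chr1:143195102-143195351, - strand): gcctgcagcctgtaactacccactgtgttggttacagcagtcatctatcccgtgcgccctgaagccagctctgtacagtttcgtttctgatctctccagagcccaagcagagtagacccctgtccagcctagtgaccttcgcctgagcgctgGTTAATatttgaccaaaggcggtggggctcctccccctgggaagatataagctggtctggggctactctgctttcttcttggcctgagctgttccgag
Pdzk1 (chr2:187064745-187064994, + strand): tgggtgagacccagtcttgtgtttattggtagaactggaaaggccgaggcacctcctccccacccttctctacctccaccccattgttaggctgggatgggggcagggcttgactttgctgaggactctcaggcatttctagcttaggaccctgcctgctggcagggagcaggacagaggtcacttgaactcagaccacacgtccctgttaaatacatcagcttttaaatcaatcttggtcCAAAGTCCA
Tinag (chr8:86765486-86765735, - strand): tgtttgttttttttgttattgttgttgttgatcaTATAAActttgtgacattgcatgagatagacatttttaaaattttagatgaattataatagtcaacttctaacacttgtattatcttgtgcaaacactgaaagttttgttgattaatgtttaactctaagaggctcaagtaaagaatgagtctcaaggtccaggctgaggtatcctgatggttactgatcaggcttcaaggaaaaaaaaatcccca
Mme (chr2:149872247-149872496, + strand): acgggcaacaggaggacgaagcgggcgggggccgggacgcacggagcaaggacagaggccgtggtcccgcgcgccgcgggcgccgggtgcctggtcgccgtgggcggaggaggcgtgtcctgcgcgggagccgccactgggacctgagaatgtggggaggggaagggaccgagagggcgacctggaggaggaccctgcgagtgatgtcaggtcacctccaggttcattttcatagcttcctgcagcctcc
Lrp2 (chr3:74754536-74754785, - strand): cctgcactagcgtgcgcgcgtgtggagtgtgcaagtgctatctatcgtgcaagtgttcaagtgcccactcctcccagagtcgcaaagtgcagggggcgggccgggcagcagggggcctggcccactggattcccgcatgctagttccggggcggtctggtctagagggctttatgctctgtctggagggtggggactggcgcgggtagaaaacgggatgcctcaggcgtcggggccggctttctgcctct

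The mean was higher in PEC-enriched isolates for all 10 genes, against 41.8% of all probesets and 44.8% of genes, but in 2 ranges of size. Tinag, Pdzk1, Anpep, Mme and Cubn had log2 fold changes between 1.05 and 1.24, which is 2.07-fold to 2.36-fold. Amn, Lrp2, Dab2, Enpep and Dpp4 had log2 fold changes between 0.14 and 0.41, which is 1.10-fold to 1.33-fold. By mean level among all genes, Lrp2, Dab2, Dpp4 and Enpep stood at percentiles 99.4, 98.3, 99.3 and 99.7, and Amn at 65.2. Tinag stood at 48.1, Anpep at 59.6, Cubn at 69.3, Pdzk1 at 74.3 and Mme at 89.4. Whether the level of a gene bears on the size of its difference was not tested. A log2 fold change of 1 or more was found in 0.606% of all probesets and 0.965% of genes. This division at 1 was drawn after the values were seen and carries no test. It moved with single arrays, since 1 member stayed at 1 or more without PEC-enriched replicate 2 and 0 did so without PEC-deprived replicate 2. None of the 10 passed an adjusted p under 0.01 in limma with Benjamini-Hochberg adjustment over all probesets (0%, or 0 of 29215, passed in all), and 8 had an unadjusted limma p under 0.05, against 5.77% of probesets and 7.96% of genes that did so in this direction (10.4% of probesets in both directions). In 8 of the 10 the lowest PEC-enriched array exceeded the highest PEC-deprived array, which was the case in 7.24% of probesets and 9.68% of genes. Pdzk1, Anpep, Mme and Tinag are among the genes the study listed as different on these same arrays. All 10 members were chosen with earlier results of these data known, so the direction is not independent evidence for any of them.

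**Figure D1:**
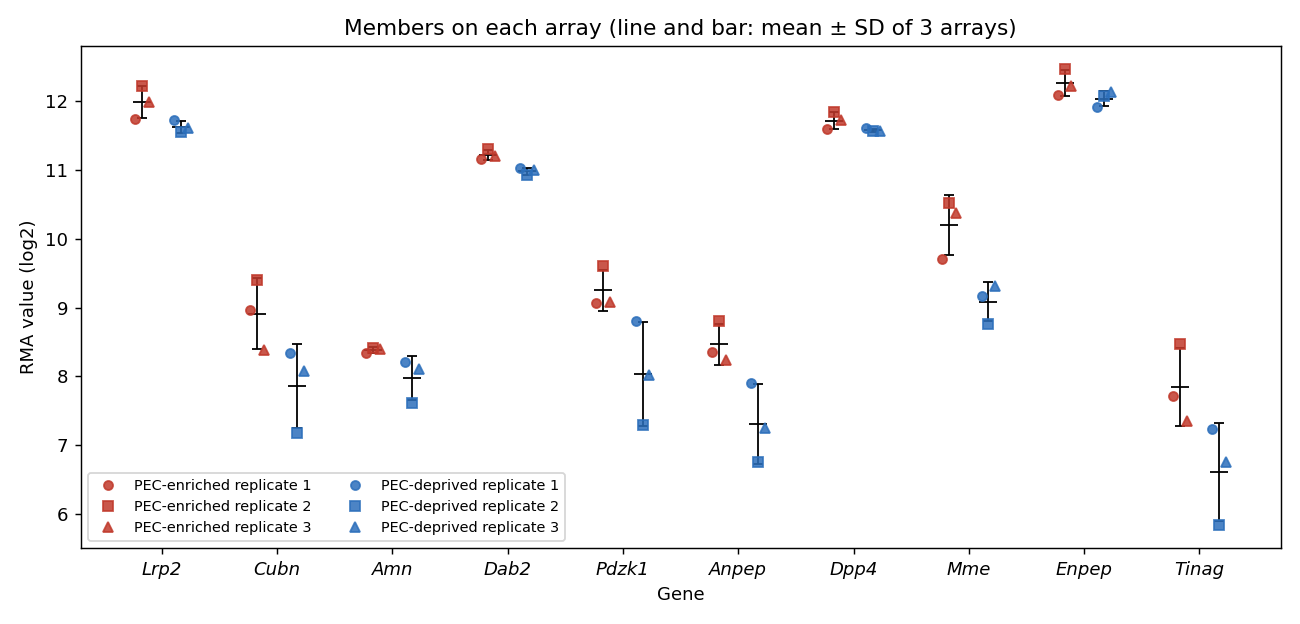
RMA log2 values (y axis) of the 10 genes (x axis) on each array, with PEC-enriched arrays left of PEC-deprived arrays for each gene. Lines and bars are the mean ± SD of 3 arrays. Dpp4 and Enpep are the 2 genes in which the groups overlap.

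Among the endocytic receptors, cubilin differed most between the isolates. Cubn had log2 values of 8.96, 9.40 and 8.37 on PEC-enriched replicates 1 to 3, against 8.34, 7.17 and 8.07 on PEC-deprived replicates 1 to 3. The groups were parted by 0.037 only, between PEC-enriched replicate 3 and PEC-deprived replicate 1. The mean was 8.91 ± 0.51 on PEC-enriched arrays and 7.86 ± 0.61 on PEC-deprived arrays (SD, n = 3 arrays each), and the difference was 1.05 log2 units (SE 0.334, 95% interval 0.28 to 1.82, limma, adjusted p = 0.325). For Amn, the partner that carries cubilin to the membrane, the PEC-enriched arrays read 8.34, 8.41 and 8.40 and the PEC-deprived arrays 8.21, 7.61 and 8.11. The PEC-enriched arrays were nearly equal, and PEC-deprived replicate 2 stood low. The log2 fold change of Amn was 0.41 (SE 0.155, 95% interval 0.05 to 0.76, limma, adjusted p = 0.4), and it was 0.22 without PEC-deprived replicate 2. Lrp2 had values of 11.75, 12.23 and 12.00 in PEC-enriched isolates and 11.72, 11.55 and 11.62 in PEC-deprived isolates. PEC-enriched replicate 1 lay only 0.03 above PEC-deprived replicate 1, and the log2 fold change was 0.36 (SE 0.131, 95% interval 0.06 to 0.67, limma, adjusted p = 0.374).

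The scaffold differed more between the isolates than the adaptor did. Dab2 read 11.16, 11.31 and 11.20 on the PEC-enriched arrays and 11.03, 10.93 and 11.00 on the PEC-deprived arrays. The groups did not overlap, the SD was 0.08 on PEC-enriched arrays and 0.05 on PEC-deprived arrays, and the log2 fold change was 0.24 (SE 0.0892, limma, adjusted p = 0.395). Pdzk1 read 9.06, 9.60 and 9.09 in PEC-enriched isolates, against 8.80, 7.29 and 8.02 in PEC-deprived isolates. Its PEC-deprived arrays covered a wide span, and the nearest of them, replicate 1, lay 0.26 below the lowest PEC-enriched array. Its log2 fold change was 1.21 (SE 0.341, 95% interval 0.43 to 2.00, limma, adjusted p = 0.279), and it was 0.84 without PEC-deprived replicate 2 and 1.60 without PEC-deprived replicate 1.

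Of the 4 peptidases, Anpep and Mme had means over 2-fold higher in PEC-enriched isolates and Dpp4 and Enpep did not. Anpep read 8.36, 8.80 and 8.23 on PEC-enriched arrays and 7.91, 6.74 and 7.25 on PEC-deprived arrays. The groups were 0.32 apart at their nearest arrays, and the difference was 1.16 log2 units (SE 0.278, 95% interval 0.52 to 1.80, limma, adjusted p = 0.216). Mme, whose neprilysin cleaves natriuretic peptides and other vasoactive peptides, read 9.71, 10.52 and 10.37 on PEC-enriched arrays and 9.17, 8.77 and 9.31 on PEC-deprived arrays. The gap of 0.40 between its nearest arrays was the widest of the 10 genes, and its log2 fold change of 1.12 (SE 0.225, 95% interval 0.60 to 1.63) had the lowest adjusted p of the 10 in limma, 0.17. Under a regularised Bayesian test of the kind the methods name, Mme was the 1 member past the threshold, against 0.407% of all probesets (adjusted p = 0.0022, against a range of 0.056 to 0.486 in the limma alternatives). The methods do not give the settings of their test, and those used here were chosen for this report. Pdzk1, Anpep and Tinag, which the study also listed, missed the threshold in the regularised Bayesian test (adjusted p = 0.0178, 0.0106 and 0.0234). Dpp4, which removes dipeptides from incretins and other peptides, read 11.59, 11.84 and 11.72 on PEC-enriched arrays and 11.61, 11.57 and 11.57 on PEC-deprived arrays. The groups overlapped, and the log2 fold change was 0.14 (SE 0.0960, 95% interval -0.08 to 0.36, limma, adjusted p = 0.734). Enpep, the aminopeptidase that converts angiotensin II to angiotensin III, read 12.10, 12.48 and 12.23 in PEC-enriched isolates and 11.91, 12.08 and 12.13 in PEC-deprived isolates. PEC-deprived replicate 3 lay above PEC-enriched replicate 1, and the log2 fold change was 0.22 (SE 0.121, 95% interval -0.05 to 0.50, limma, adjusted p = 0.616). Without PEC-enriched replicate 2 it was 0.12 for Enpep and 0.08 for Dpp4.

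Tinag, the basement membrane member, had the largest mean difference and also the largest spread within PEC-enriched isolates. It read 7.71, 8.47 and 7.34 on PEC-enriched arrays, against 7.24, 5.83 and 6.75 on PEC-deprived arrays. PEC-enriched replicate 3 lay 0.11 above PEC-deprived replicate 1, so the groups barely parted. The log2 fold change was 1.24 (SE 0.381, 95% interval 0.36 to 2.11, limma, adjusted p = 0.317), and it ran from 0.85 without PEC-deprived replicate 2 to 1.55 without PEC-deprived replicate 1.

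**Figure D2:**
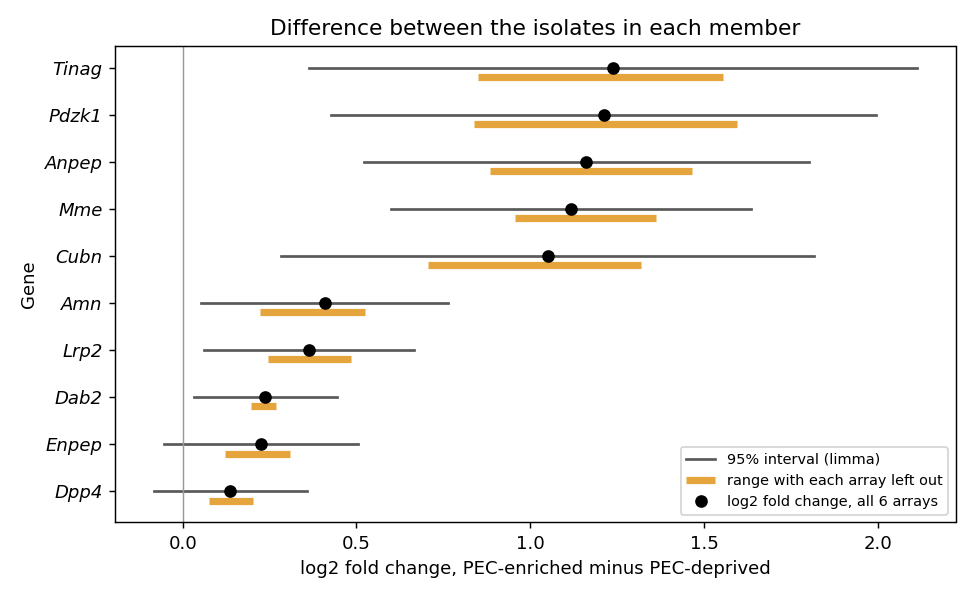
log2 fold change (x axis, PEC-enriched minus PEC-deprived) of each gene (y axis). Points are the value over all 6 arrays, grey lines the 95% interval from limma and orange bars the range when each array is left out. The 5 genes from Tinag to Cubn lie at 1.05 and above and the 5 from Amn to Dpp4 at 0.41 and below.

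The members varied together from array to array. PEC-enriched replicate 2 was the highest of the 6 arrays in 10 of 10 genes, and PEC-deprived replicate 2 was the lowest in 9 of 10. The exception was Enpep, in which PEC-deprived replicate 1 was lowest. Among the PEC-deprived arrays, replicate 1 was highest and replicate 2 lowest in 8 genes, and only Mme (replicate 3, 1, 2) and Enpep (replicate 3, 2, 1) did not. Taken relative to its own mean over the 6 arrays, Tinag stood at 1.25 on PEC-enriched replicate 2 and at -1.39 on PEC-deprived replicate 2, and Pdzk1 at 0.96 and -1.35 on the same arrays. On those arrays Enpep stood at 0.32 and -0.07 and Dpp4 at 0.19 and -0.08. Within the PEC-enriched group Cubn, Anpep and Tinag were lowest on replicate 3, and the other 7 genes were lowest on replicate 1.

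Marker lists of several cell types varied on the same arrays. The lists here and below were chosen with earlier results of these data known. Many genes of the tubular and PEC lists are also among those the study listed as different on these arrays. Their counts and directions are therefore not independent evidence. For all 32 measured proximal tubule markers the PEC-enriched mean was the higher one, with a median log2 fold change of 1.06 against -0.02 over all genes. Limma called 0 of them and the regularised Bayesian test 1, against 0.407% of all probesets under the latter. An unadjusted limma p under 0.05 was found for 30, against 7.96% of all genes in this direction. Their mean level lay between 9.03 and 9.66 on the PEC-enriched arrays, against 7.62 to 8.94 on the PEC-deprived arrays. Relative to the mean of all arrays it stood at 0.90 on PEC-enriched replicate 2, and at 0.17, -1.14 and -0.53 on PEC-deprived replicates 1 to 3. The part of tubular RNA in the differences of the 10 genes was not tested. A smaller number of cells of a type and less RNA per cell cannot be told apart in such isolates. Acmsd, an enzyme of tryptophan breakdown, had the highest log2 fold change of that list at 1.45, and Aqp1, the water channel of the proximal tubule that is also found in endothelium, the lowest at 0.25. Of the 15 PEC markers measured, 14 were higher in PEC-enriched isolates (median 0.65), with a highest value of 1.91 for the retinaldehyde dehydrogenase Aldh1a1 and a lowest of -0.27 for the adhesion molecule Vcam1. Their mean level was 7.71 to 8.11 on PEC-enriched arrays and 6.84 to 7.30 on PEC-deprived arrays. In the study's rat kidney sections, antibodies to the products of Pax8, Cdh6 and Aldh1a1 marked tubular cells besides PECs. The PEC list is therefore not specific to PECs, and the part of tubular RNA in its values was not tested.

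The podocyte list, which includes defining genes of the filtration slit, differed little. PEC-enriched means were higher for 6 and lower for 7 of its 13 measured genes, with a median log2 fold change of -0.00325, running from 0.41 for the transcription factor Tcf21 down to -0.16 for the transcription factor Lmx1b. Nphs1, which encodes nephrin and was picked after its values were seen, averaged 12.07 on PEC-enriched arrays and 12.01 on PEC-deprived arrays. The mean level of the list lay between 11.20 and 11.57 on PEC-enriched arrays and between 11.37 and 11.49 on PEC-deprived arrays. All 15 glomerular endothelial markers had a lower mean in PEC-enriched isolates (median -0.44), from -0.03 for the claudin Cldn5 to -0.69 for the VEGF receptor Flt1, and 14 of 15 leukocyte markers did too (median -0.41), from 0.13 for Cd3d, a T cell receptor chain, to -0.67 for the lysosomal protein Laptm5. The 11 thick ascending limb markers were all higher (median 1.45), from 0.05 for Ppp1r1b to 2.88 for Umod, which encodes uromodulin. Of 17 distal tubule and collecting duct markers 16 were higher (median 0.58), from -0.08 for Pvalb to 2.16 for the calcium-binding protein Calb1. Of 8 genes of mesangium and smooth muscle 5 were higher (median 0.08), from -0.64 for Gata3 to 0.83 for the smooth muscle myosin Myh11. Limma called 0 genes in each of these lists. The regularised Bayesian test, which called 0.407% of all probesets, called 6 of the thick ascending limb, 4 of the distal tubule and collecting duct, 5 of the PEC list and 0 of the podocyte, endothelial, leukocyte and mesangial lists. In the higher direction an unadjusted limma p under 0.05 was found for 9 thick ascending limb, 14 distal, 12 PEC and 1 podocyte genes. The same held for 3 mesangial or smooth muscle genes, against 7.96% of all genes in that direction. In the lower direction it was found for 12 endothelial, 6 leukocyte and 1 mesangial or smooth muscle genes. Over all probesets 10.4% had such a p in both directions. Of 9 reference genes 6 were higher and 3 lower (median 0.045), from -0.15 for B2m to 0.25 for Gapdh, with 1 at an unadjusted limma p under 0.05 and 0 called by either test.

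**Figure D3:**
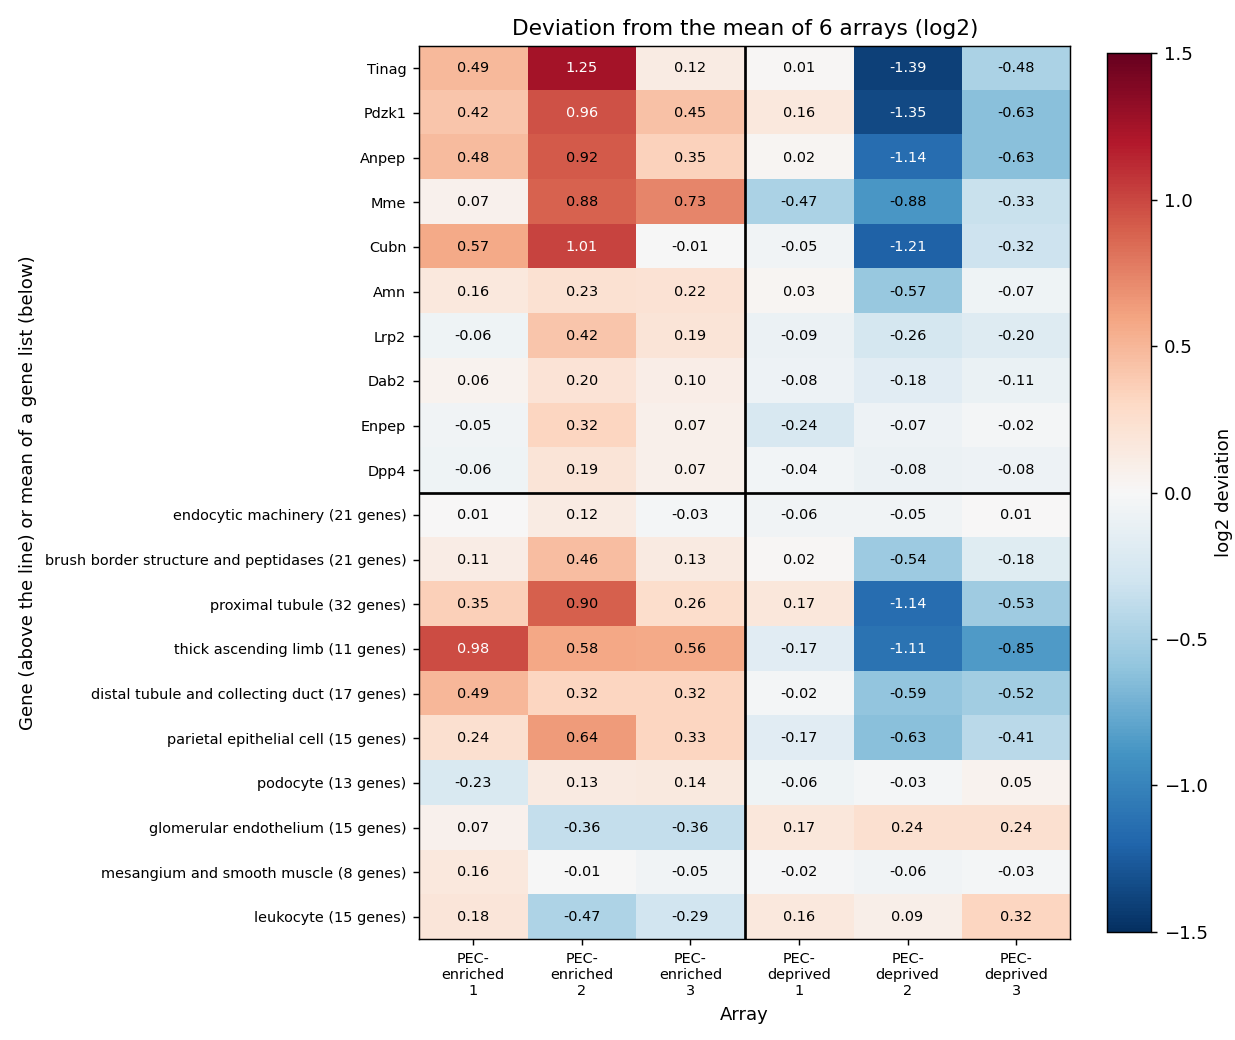
Deviation of each gene, or of the mean of each gene list, from its own mean over the 6 arrays (log2, colour and printed value), with arrays on the x axis and the 10 genes above the horizontal line, ordered by log2 fold change. Tinag, Pdzk1, Anpep and Cubn have low values on PEC-deprived replicate 2, between -1.39 and -1.14. On that array the proximal tubule list stands at -1.14 and the thick ascending limb list at -1.11. The PEC list stands there at -0.63 and the distal tubule and collecting duct list at -0.59. Dab2, Dpp4 and Enpep lie within 0.32 of their mean on all arrays.

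The general machinery of endocytosis had a median difference near 0. Of its 21 measured genes 14 were higher and 7 lower in PEC-enriched isolates, and 3 had all PEC-enriched arrays above all PEC-deprived arrays. The median log2 fold change was 0.04. None (0) passed the threshold in limma or the regularised Bayesian test. An unadjusted limma p under 0.05 was found for 1, a higher gene, against 7.96% of all genes in that direction. The highest was Clcn5, the endosomal chloride-proton exchanger of the proximal tubule, at 0.54 (SE 0.165, limma, adjusted p = 0.311), with no overlap between groups. Lrpap1, the chaperone that escorts megalin through the endoplasmic reticulum, followed at 0.27 and the immunoglobulin receptor Fcgrt at 0.19, both with overlapping groups. The lowest were Ap2b1, a subunit of the clathrin adaptor AP2, at -0.08 and the recycling GTPase Rab11a at -0.11.

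Of 21 measured genes of brush border structure and other brush border peptidases 16 had the higher mean in PEC-enriched isolates, against 44.8% of all genes. In 11 of the 16 the arrays of the groups did not overlap, as in 9.68% of all genes in this direction. The median log2 fold change was 0.43. Limma and the regularised Bayesian test each called 0, and 12 higher and 2 lower genes had an unadjusted limma p under 0.05. Over all genes 7.96% did so in the higher direction, and over all probesets 10.4% in both directions. Cltrn, the collectrin that brings amino acid transporters to the membrane, averaged 10.17 ± 0.475 on PEC-enriched arrays and 8.72 ± 0.890 on PEC-deprived arrays (SD, n = 3 arrays each), and the difference was 1.45 log2 units (SE 0.418, limma, adjusted p = 0.289). Pdzk1ip1, a small membrane protein that binds Pdzk1, followed at 1.24 and Xpnpep2, a membrane aminopeptidase, at 1.11. At the low end Nherf2, a PDZ scaffold also found in podocytes, stood at -0.32 (limma, adjusted p = 0.26) and Cd36, a fatty acid and thrombospondin receptor also found in endothelium, at -0.68 (limma, adjusted p = 0.166). For both of these the PEC-enriched arrays lay below the PEC-deprived arrays with no overlap, as in 7.79% of probesets.

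To ask whether members of a pair differed unequally, the log2 values of 8 pairs were subtracted within each array. The differences were compared between isolates by a two-sided exact permutation test, for which 0.1 is the smallest p that 3 arrays against 3 allow. The change of a pair equals the difference of its members' log2 fold changes given above, so its size is not separate evidence. A difference between probesets has no meaning as a level, and only its change between isolates is read. Pdzk1 minus Lrp2 was higher in PEC-enriched than in PEC-deprived isolates by 0.85, Anpep minus Enpep by 0.94 and Anpep minus Dpp4 by 1.02. In each of these 3 pairs the groups did not overlap (exact p = 0.1, adjusted p = 0.267 over 8 pairs). For Anpep minus Dpp4 the values were -3.24, -3.04 and -3.49 on PEC-enriched arrays and -3.70, -4.82 and -4.32 on PEC-deprived arrays. The partners of the receptor complex gave overlapping groups. Lrp2 minus Cubn differed by -0.69 (exact p = 0.3, adjusted p = 0.457) and Cubn minus Amn by 0.64 (exact p = 0.2, adjusted p = 0.4). Dab2 minus Lrp2 differed by -0.12 and Lrp2 minus Enpep by 0.14 (exact p = 0.4, adjusted p = 0.457 for both). Anpep minus Mme differed by 0.05 (exact p = 1, adjusted p = 1), with SDs of 0.394 on PEC-enriched arrays and 0.448 on PEC-deprived arrays.

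**Figure D4:**
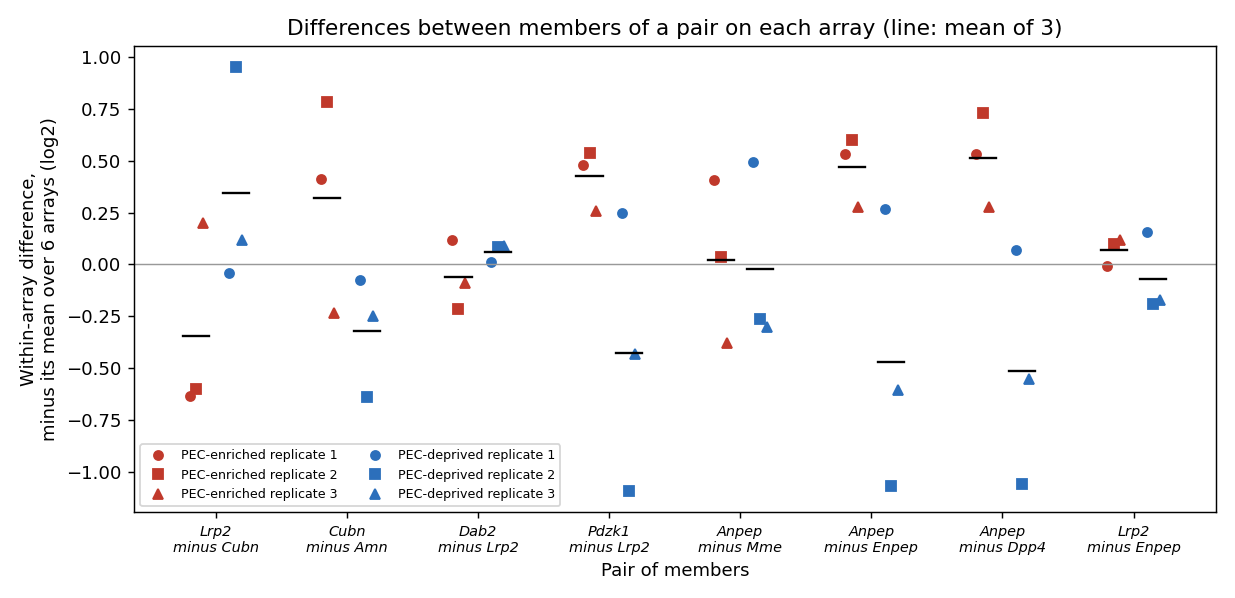
Difference between the log2 values of 2 genes on the same array, minus the mean of that difference over the 6 arrays (y axis), for the 8 pairs (x axis), with PEC-enriched arrays left of PEC-deprived arrays and a line at each mean of 3 arrays. Pdzk1 minus Lrp2, Anpep minus Enpep and Anpep minus Dpp4 are the 3 pairs with no overlap between groups.

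The genes nearest to 3 members in array profile were looked up among the 14496 other genes, as the smallest root mean square difference of centred log2 values over 6 arrays. For Lrp2 these were Ndufs3, a subunit of respiratory complex I (0.0198), Lgr4, a receptor of R-spondins (0.0342), and Manba, a lysosomal mannosidase (0.0406). For Anpep they were Atp6v0a4, a proton pump subunit of the kidney (0.0471), Car2, carbonic anhydrase 2 (0.0872), and Fads2, a fatty acid desaturase (0.0884). For Enpep they were Actr6 (0.0257), Mrps14 (0.0276) and Gfra4 (0.0293). Between members, Dab2 and Dpp4 were the nearest pair (0.0635), followed by Dpp4 and Enpep (0.0992), while Pdzk1 and Anpep (0.115) were the nearest pair among the 5 genes with larger differences.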

How the data were processed

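RNA of 3 PEC-enriched and 3 PEC-deprived glomerular isolates was hybridized to Affymetrix rat 1.0ST arrays, 1 array each. Per the methods and the processing notes, the authors used RMA for background adjustment, quantile normalization and probeset summaries. The deposited values are log2 expression values from 2.13 to 13.87. The software version is not given in the sources used here, signal over background was not used here, and the number of arrays limits the precision. 0 columns of per-sample values were left out.

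Groups came from the labels. Differences (PEC-enriched minus PEC-deprived) were tested with limma 3.58.1 in R 4.3.3 (lmFit, eBayes, two-sided, no covariate) over all 29215 probesets, with Benjamini-Hochberg adjustment and the threshold of 0.01 of the methods. The p-values measure the spread between these isolates. Gene symbols are those of the array platform's 2016 annotation, brought up to date by Entrez ID with RefSeq (GRCr8), which matched 15279 of 15310 probesets with 1 symbol. The 323 probesets with several symbols and 13582 with none were not named. No arrays were identical (correlations 0.982 to 0.994), and the labels give no batch.

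The members and 11 gene lists were chosen with earlier results of these data known. Named genes were all members, the 3 highest and 2 lowest genes of the endocytic and brush border lists, the highest and lowest of each other list, and the 3 nearest profiles of Lrp2, Anpep and Enpep. Alternatives were an intensity trend, array weights, a block for the replicate number, a regularised Bayesian test (prior weight 10, window of 101 probesets), probesets above the median level or with 1 symbol, cyclic loess, median centring, other thresholds and each array left out. On simulated arrays the regularised Bayesian test called unchanged probesets more often than its threshold allows, and limma called fewer of the changed ones. Each probeset was drawn there independently from a normal distribution with its observed mean and within-group SD. Such draws need not match real arrays, so the simulation cannot say which test is nearer the truth here. Figures were drawn with matplotlib 3.10.9.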

Additional observations from a re-analysis of the deposited data

How the results depend on the processing

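Each member kept its direction in all 14 alternatives fitted, but much of this was fixed in advance. The replicate block, intensity trend, regularised Bayesian test and choices of probesets leave the log2 fold change as it was. Leaving out an array cannot reverse a gene whose groups do not overlap. The call changed in 1 of 140 combinations of gene and alternative, for Mme under the regularised Bayesian test. That test called 1 member and 119 probesets, against 0 of both in limma. At an unadjusted p under 0.05 limma called 8 members and 3048 probesets, and at an adjusted p under 0.05 it called 0. With each array left out the count ran from 0 to 0 for members and from 0 to 1 for probesets, with the 1 probeset found without PEC-deprived replicate 1. The replicate number as a block changed no call (0 members, 0 probesets). The labels do not say that a number marks a shared rat, and same-numbered arrays had correlations of deviations of -0.0287, 0.0519 and 0.1, so the arrays were treated as unpaired. Whether same-numbered arrays share a rat is not known. PEC-enriched replicates 2 and 3 correlated best with their own number, and replicate 1 did not. A further 2 counts were recomputed after the data were seen. Members with no overlap between groups ran from 8 to 10, a count that cannot fall when an array is left out. The share of all genes was not recomputed for it. Members at a log2 fold change of 1 or more ran from 0 without PEC-deprived replicate 2 and 1 without PEC-enriched replicate 2 to 5. The change of Anpep minus Mme was reversed without PEC-enriched replicate 1 (-0.148), PEC-deprived replicate 2 (-0.0740) and PEC-deprived replicate 3 (-0.0936), in a range of -0.148 to 0.303. The other pairs kept their direction, which median centring cannot change. Leaving out an array cannot change it either in the pairs with no overlap between groups. Each member has 1 probeset, so averaging probesets of a gene changed nothing. Cyclic loess and median centring shifted the median of all probesets by 0.0149 and -0.00986.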

Other observations

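Several brush border genes outside the naming rule, picked here after their values were seen, differed little between the isolates. Ezr, the actin linker ezrin of microvilli and of podocytes, averaged 11.02 on PEC-enriched arrays and 10.97 on PEC-deprived arrays, a log2 fold change of 0.05 (limma adjusted p = 0.961). Alpl, the tissue-nonspecific alkaline phosphatase, stood at 0.10 (adjusted p = 0.88) and Ace, angiotensin-converting enzyme, at -0.14 (adjusted p = 0.888). Vil1, the microvillar actin bundler villin, was picked in the same way and differed more. It was at 0.84 (limma adjusted p = 0.276) with all PEC-enriched arrays above all PEC-deprived arrays.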
